A study of Mus musculus with 32 samples.

Results

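The genes of active DNA demethylation described here were chosen by name and number 8: Tet1, Tet2, Tet3, Tdg, Mbd4, Gadd45a, Gadd45b and Gadd45g. All 8 members were found among the 24940 genes of the deposited expression table, and all 8 were among the 12468 genes that entered the test. The study used mouse embryonic stem (ES) cells of strain 129. One genotype, GC, expressed the DNA-binding protein CTCF fused to green fluorescent protein (GFP-CTCF). The other, named d8 in the RNA-seq and Del8 in the ChIP-seq, expressed the same fusion without zinc finger 8 (GFP-CTCF-Del8). RNA-seq comprised 14 libraries, from GC lines 1 and 2 with 3 libraries each and from d8 lines 1, 2 and 3 with 3, 3 and 2 libraries. CTCF ChIP-seq peak lists of 1 GC and 1 Del8 library were used for binding. Both genotypes carried the GFP tag, so the comparison is between tagged CTCF with and without zinc finger 8. The labels name no treatment or time point for these libraries, and they do not say whether a line was 1 clone.

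Methylated cytosine can be removed from DNA in steps. The TET enzymes oxidise 5-methylcytosine, first to 5-hydroxymethylcytosine and then to 5-formyl- and 5-carboxylcytosine. TDG, a thymine DNA glycosylase, excises the last of these forms and thereby starts base excision repair, while MBD4 removes thymine or uracil mispaired with guanine at CpG sites. The GADD45 proteins are small stress-induced adaptors that bind PCNA, CDK1 and the kinase MAP3K4, and they have been linked to local, repair-based demethylation. In mouse ES cells Tet1 and Tet2 are known as the main TET genes, and Tet3 is best known from the oocyte and the zygote.

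The promoter windows of the Gadd45 genes are shown because these 3 short genes had the largest differences between the genotypes and not in the same direction. Each window runs from 250 bases before to 50 bases after the start site, in the direction of transcription, and comes from RefSeq on GRCm38.p6. In all 8 members the start site of the RefSeq window was at the same base as that of the transcript counted in the expression table. Capitals mark matches to the octamer motif ATGCAAAT, to CCAAT, to the TATA motif TATAAA and to the CTCF core letters CCNNNAGNNGGC, all read on both strands. The windows lie at chr6:67037358-67037657 (minus strand) for Gadd45a, chr10:80929841-80930140 (plus strand) for Gadd45b and chr13:51846425-51846724 (plus strand) for Gadd45g.
Gadd45a: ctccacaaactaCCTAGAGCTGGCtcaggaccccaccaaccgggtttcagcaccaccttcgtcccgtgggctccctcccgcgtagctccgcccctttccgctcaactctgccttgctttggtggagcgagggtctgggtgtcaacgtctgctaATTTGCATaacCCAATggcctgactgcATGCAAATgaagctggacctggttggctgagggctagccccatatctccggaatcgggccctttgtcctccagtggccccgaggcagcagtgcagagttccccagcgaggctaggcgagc
Gadd45b: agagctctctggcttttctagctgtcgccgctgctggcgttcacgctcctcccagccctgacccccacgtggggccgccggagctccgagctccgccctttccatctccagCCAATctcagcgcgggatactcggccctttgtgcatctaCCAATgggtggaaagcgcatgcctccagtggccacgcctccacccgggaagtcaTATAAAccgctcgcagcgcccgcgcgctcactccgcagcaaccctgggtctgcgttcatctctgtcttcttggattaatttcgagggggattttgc
Gadd45g: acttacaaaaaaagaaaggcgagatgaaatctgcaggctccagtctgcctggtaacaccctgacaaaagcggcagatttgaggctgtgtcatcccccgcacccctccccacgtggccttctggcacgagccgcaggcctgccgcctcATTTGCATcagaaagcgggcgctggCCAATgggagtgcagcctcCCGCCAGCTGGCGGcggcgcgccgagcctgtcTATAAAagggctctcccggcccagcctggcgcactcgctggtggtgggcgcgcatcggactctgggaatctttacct

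The Gadd45a window held 2 octamer matches, which began 97 bases before the start site on the minus strand and 70 bases before it on the plus strand, on either side of a CCAAT match at 86 bases before it. Gadd45g held 1 octamer match, 103 bases before the start site on the minus strand, and Gadd45b held none. Among the windows of 27025 genes, 1.75% held an octamer match, and among those of 9592 tested genes 1.38% did. TATAAA was found in the windows of Gadd45b, 46 bases before the start site, and Gadd45g, 27 bases before it, against 6.6% of the tested genes' windows. The CTCF core letters matched once in Gadd45a, 238 bases before the start site, and once in Tet3, 25 bases into the transcript. In Gadd45g they matched on both strands of 1 overlapping stretch that began 59 bases before the start site. The letters occurred in 13.3% of the tested genes' windows. They are a short core and not a full binding site model, and the motifs were chosen after the sequences had been seen.

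CpG dinucleotides, the substrate of the pathway, numbered 14 in the Gadd45a window, 24 in Gadd45b and 21 in Gadd45g. The Tet2 window held 57, more than 99.7% of the tested genes' windows, whose median was 21. Tet1 held 17, Tet3 22, Tdg 26 and Mbd4 25.

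In GC cells Tet1 and Gadd45a had the highest levels of the 8 genes. Levels are given in RPKM, reads per kilobase of exon scaled to the reads of the library, which allow for transcript length. Over the 2 GC line means Tet1 stood at 25.5 ± 2.60 RPKM (SD, n = 2 lines) and Gadd45a at 24.5 ± 0.315 RPKM, and the ranges of the line means of these neighbours overlapped. Gadd45g (12.6 ± 2.14 RPKM) and Gadd45b (11.6 ± 4.05 RPKM) came next and overlapped with each other. Below them were Tet2 (6.84 ± 1.87 RPKM) and Mbd4 (6.12 ± 0.169 RPKM), which overlapped, then Tdg (3.75 ± 0.383 RPKM) and last Tet3 (3.10 ± 0.519 RPKM). In d8 cells Gadd45a (36.4 ± 2.58 RPKM, SD, n = 3 lines) and Tet1 (35.6 ± 4.86 RPKM) again overlapped at the top. The line means of Gadd45b in d8 (6.77 ± 1.96 RPKM) overlapped with those of Tet2 (6.55 ± 1.67 RPKM), which they did not in GC.

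**Figure D1:**
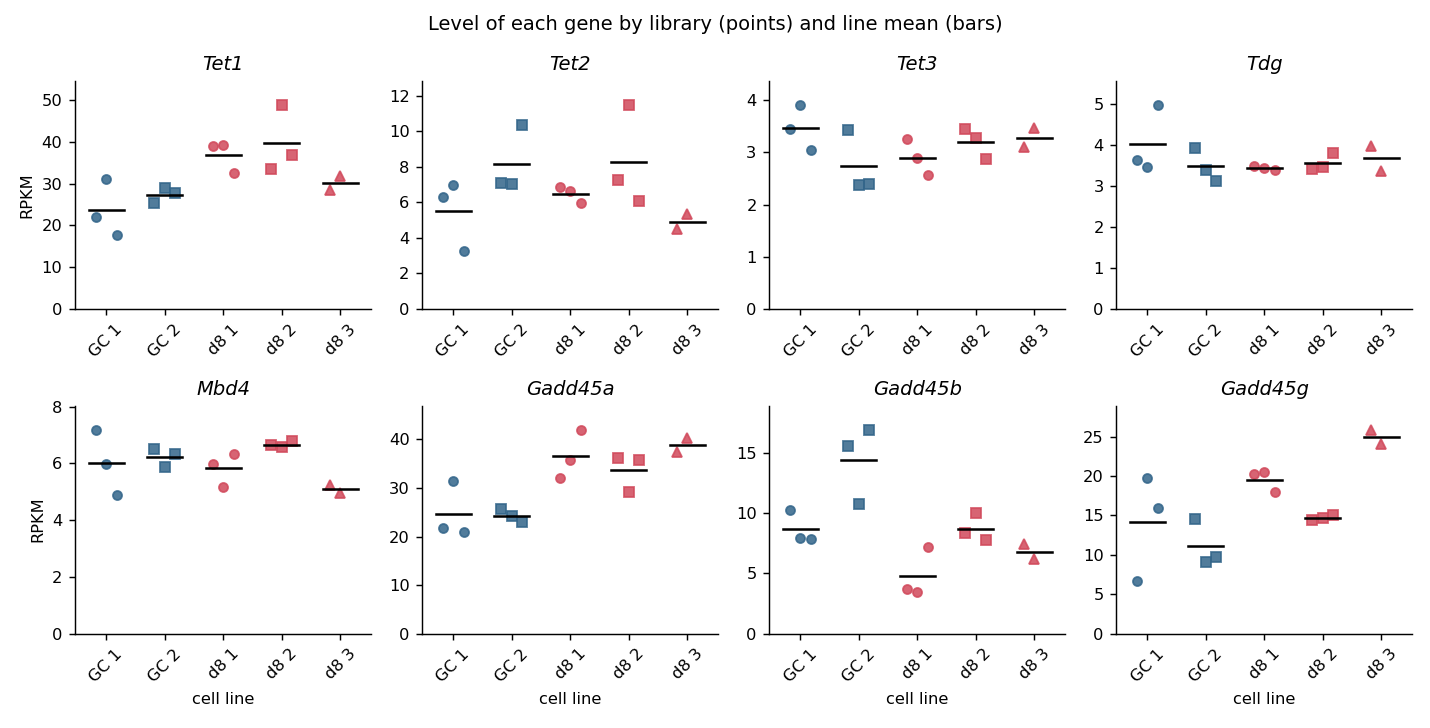
Level of each of the 8 genes in RPKM (vertical axes, each starting at 0) in the RNA-seq libraries of GC lines 1 and 2 (blue) and d8 lines 1, 2 and 3 (red). Points are libraries, with a marker shape for each line number, and black bars are line means; for Gadd45a 7 of the 8 d8 libraries lie above the highest GC library, and for Tdg, Tet3 and Mbd4 the genotypes overlap.

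The comparison of d8 with GC asks how loss of zinc finger 8 bears on these genes. Of the 8 members, 1 changed: Gadd45a rose. Tet1 and Gadd45g had higher line means in every d8 line than in either GC line and Gadd45b had a lower mean, but these differences did not pass the test. Tet2, Tet3, Tdg and Mbd4 had log2 differences between -0.05 and 0.02. The test used limma on the 5 line means of log2(RPKM + 1), two-sided, with Benjamini-Hochberg adjustment over all 12468 genes and a threshold of 0.05. In that test 1092 genes (8.76%) changed, 376 of them higher (3.02%) and 716 lower (5.74%) in d8, so 1 member of 8 called is near the background. An unadjusted p under 0.05 was reached by 4 members, against 27.8% of all genes. The members' median log2 difference was -0.01 and that of all genes was -0.02. Line means of the genotypes did not overlap for 3 members, Tet1, Gadd45a and Gadd45g, and for 46.2% of all genes tested. Counts of single d8 libraries outside the GC range are description only. Libraries of a line are not independent, and the share of all genes with such counts was not computed. Over all genes, the number called fell when a line was left out, to 27 for GC line 1 and 511 for GC line 2. Leaving out a d8 line gave 117 for line 1, 579 for line 2 and 30 for line 3.

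**Figure D2:**
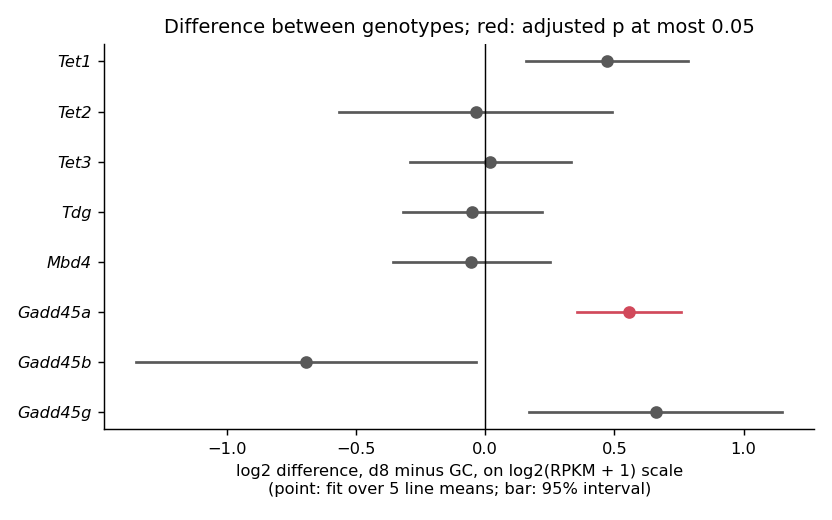
Log2 difference of each gene, d8 minus GC, on the log2(RPKM + 1) scale (horizontal axis), from the limma fit over 5 line means; points are estimates and bars 95% intervals. Gadd45a, in red, is the member that passed the adjusted threshold of 0.05; the intervals of Tet1, Gadd45b and Gadd45g also leave out 0, without adjustment for the number of genes tested.

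Gadd45a, on chromosome 6 from 67035096 to 67037407 (minus strand, mm10), read 21.8, 31.5 and 20.9 RPKM in GC line 1 and 25.6, 24.2 and 23.0 RPKM in GC line 2. The libraries of d8 line 1 read 32.1, 35.8 and 41.9 RPKM, those of line 2 read 36.2, 29.2 and 35.7 RPKM, and those of line 3 read 37.4 and 40.3 RPKM. The genotypes overlapped only through the GC 1B library at 31.5 RPKM and the d8 2B library at 29.2 RPKM. The log2 difference of the line means was 0.56 (SE 0.084, 95% interval 0.36 to 0.76, limma adjusted p = 0.020). An estimated 374 to 796 reads per library lay behind these values. The call was lost when GC line 1 was left out (adjusted p = 0.0821), as also for GC line 2 (0.0556), d8 line 1 (0.065) and d8 line 3 (0.0727). It held when d8 line 2 was left out (0.0371), and the limma log2 differences in these fits were 0.51 to 0.61. It was also lost with no filter on low genes (limma adjusted p = 0.0965).

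The 5' part of Gadd45a is shared with another gene. E230016M11Rik, a non-coding RNA gene on the opposite strand, overlaps 809 bp of the Gadd45a gene body and runs across its start site. Its level was 3.58 ± 0.0660 RPKM in GC and 5.59 ± 0.783 RPKM in d8, a log2 difference of 0.52 (SE 0.13, limma adjusted p = 0.0596). The counting command in the file header names no strand setting, so reads of the overlap cannot be assigned to one strand. Gng12, a G protein subunit gene and the other neighbour within 50 kb, stood at 10.1 ± 4.03 RPKM in GC and 10.7 ± 0.669 RPKM in d8.

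Gadd45g, on chromosome 13 from 51846675 to 51848474 (plus strand), read 6.68, 19.8 and 15.9 RPKM in GC line 1 and 14.5, 9.05 and 9.71 RPKM in GC line 2. In d8 the lines read 20.2, 20.5 and 17.9 RPKM, then 14.4, 14.7 and 15.1 RPKM, then 25.8 and 24.1 RPKM. Of the 8 d8 libraries 4 lay above the highest GC library, GC 1B, and the libraries of a d8 line lay closer together than those of GC line 1. The log2 difference was 0.66 (SE 0.20, 95% interval 0.17 to 1.15, limma adjusted p = 0.0942). Leaving out d8 line 2 gave 0.84 (limma adjusted p = 0.0497), past the threshold, while leaving out any other line gave 0.48 to 0.78 (limma adjusted p from 0.176 to 0.281).

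Gadd45b, on chromosome 10 from 80930091 to 80932204 (plus strand), pointed the other way. Its GC libraries read 10.2, 7.97 and 7.88 RPKM in line 1 and 15.6, 10.8 and 16.9 RPKM in line 2. The d8 libraries read 3.72, 3.46 and 7.18 RPKM in line 1, 8.38, 9.99 and 7.75 RPKM in line 2 and 7.40 and 6.21 RPKM in line 3. Of the 8 d8 libraries 6 lay below the lowest GC library. The line means overlapped narrowly, since d8 line 2 (8.71 RPKM) stood just above GC line 1 (8.69 RPKM). The log2 difference was -0.69 (SE 0.27, 95% interval -1.35 to -0.04, limma adjusted p = 0.162).

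As a share of the summed RPKM of the 3 Gadd45 genes, Gadd45b made up 13.5 to 34.0% in the GC libraries and 5.79 to 18.5% in the d8 libraries. The shares overlapped between the genotypes, and over line means they were 18.3 and 29.0% in GC against 7.86, 15.2 and 9.64% in d8. The summed level of the 3 genes was 38.7 to 59.2 RPKM in GC libraries and 53.9 to 70.6 RPKM in d8 libraries.

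**Figure D3:**
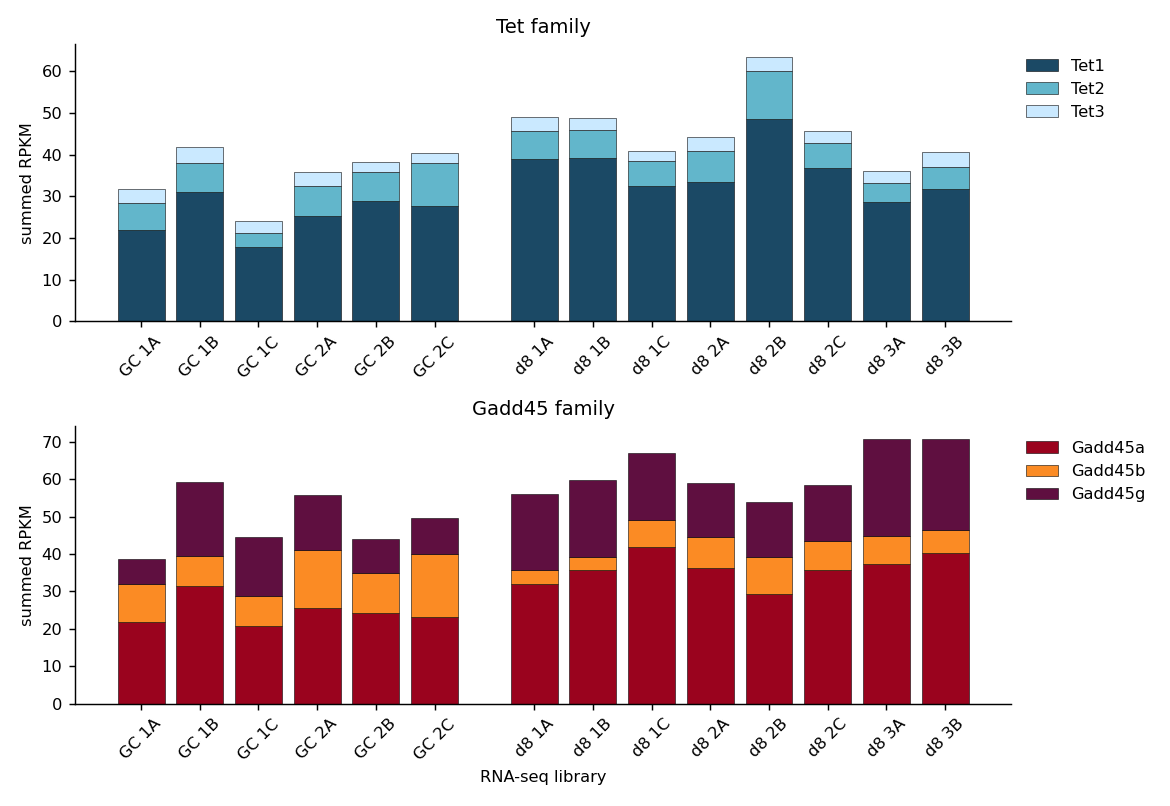
Summed level in RPKM (vertical axes, starting at 0) of the 3 Tet genes (upper panel) and the 3 Gadd45 genes (lower panel) in each RNA-seq library, with the parts of a bar giving each gene. Tet1 is the largest part of every upper bar, 68.5 to 75.4% in GC and 75.8 to 80.5% in d8, and Gadd45b is a smaller part in most d8 bars than in the GC bars.

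Tet1, on chromosome 10 from 62804570 to 62887324 (minus strand), read 22.0, 31.1 and 17.8 RPKM in GC line 1 and 25.4, 28.9 and 27.7 RPKM in GC line 2. The d8 libraries read 38.9, 39.3 and 32.5 RPKM in line 1, 33.6, 48.7 and 36.8 RPKM in line 2 and 28.6 and 31.8 RPKM in line 3. Of the 8 d8 libraries 7 lay above the highest GC library, and d8 3A lay inside the GC range. Line means of the genotypes were apart for Tet1, as for 46.2% of all genes tested. The log2 difference was 0.47 (SE 0.13, 95% interval 0.16 to 0.78, limma adjusted p = 0.0725). Its share of the summed Tet level was 68.5 to 75.4% in the GC libraries and 75.8 to 80.5% in the d8 libraries, close ranges that did not overlap. Over line means the share was 72.5 and 71.5% in GC against 79.7, 77.6 and 78.7% in d8. Tet1 has the longest counted transcript of the Tet genes, and the part of transcript length in this share was not tested.

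Transcript length moved with the genotype, and it touches the Tet genes, whose counted transcripts are 14339, 9168 and 10893 bp long for Tet1, Tet2 and Tet3. Among tested genes with transcripts over 8000 bp, members left out, the median log2 difference was 0.12 (454 genes), and among those under 1500 bp it was -0.07 (2653 genes). The GC 1C library stood apart in this respect, at a median of -0.24 for long and 0.21 for short transcripts relative to each gene's mean over the libraries. With the length trend removed in each library, an alternative chosen after seeing the data, the log2 difference of Tet1 was 0.30 (limma adjusted p = 0.193) and that of Gadd45a was 0.63 (limma adjusted p = 0.0191). Without the GC 1C library, likewise added afterwards, Tet1 stood at 0.38 (limma adjusted p = 0.0937). The part of transcript length in the Tet1 difference was not tested beyond these values.

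**Figure D4:**
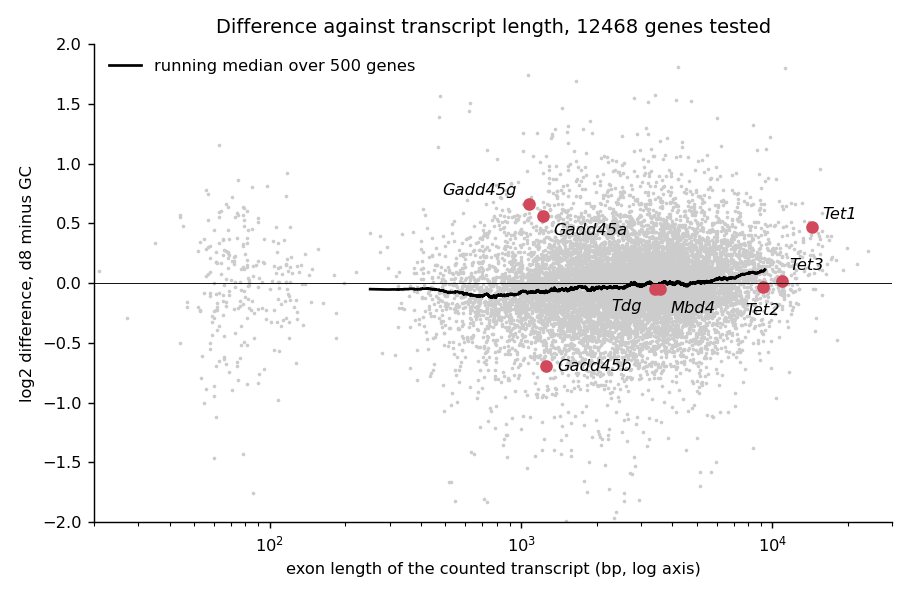
Log2 difference, d8 minus GC, on the log2(RPKM + 1) scale (vertical axis) against the exon length of the counted transcript in bp (horizontal log axis) for the genes tested, in grey, with a running median and the 8 members in red. The running median rises with length, and Tet1 (14339 bp, 0.47) lies above it while Tet2 and Tet3 lie close to 0; 10 genes fall outside the plotted range.

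Tet2, on chromosome 3 from 133463677 to 133544390 (minus strand), ranged over the GC libraries from 3.29 RPKM through a median of 7.01 RPKM to 10.4 RPKM. In d8 it ranged from 4.52 RPKM through a median of 6.36 RPKM to 11.4 RPKM. The genotypes overlapped across most of these ranges, and the highest and lowest values came from the d8 2B and GC 1C libraries. The log2 difference was -0.04 (SE 0.22, 95% interval -0.57 to 0.49, limma adjusted p = 0.932). This interval is the widest of the 4 genes with differences near 0.

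Tet3, on chromosome 6 from 83362374 to 83441678 (minus strand), ranged from 2.38 to 3.90 RPKM in GC, with a median of 3.24 RPKM, and from 2.56 to 3.46 RPKM in d8, with a median of 3.18 RPKM. All d8 libraries lay within the GC range. The log2 difference was 0.02 (SE 0.13, 95% interval -0.29 to 0.33, limma adjusted p = 0.939). Between Tet3 and the next gene, Bola3, which acts in the assembly of mitochondrial iron-sulfur clusters, lie 3982 bp. Bola3 fell from 7.95 ± 1.41 RPKM to 0.816 ± 0.116 RPKM (log2 difference -2.27, SE 0.14, limma adjusted p = 0.00326). Of 20 tested neighbours within 50 kb of a member 1 changed, Bola3, against 8.76% of all genes tested.

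Tdg, on chromosome 10 from 82629838 to 82650799 (plus strand), ranged from 3.11 to 4.96 RPKM in GC, with a median of 3.54 RPKM, and from 3.36 to 3.98 RPKM in d8, with a median of 3.45 RPKM. Its log2 difference was -0.05 (SE 0.11, 95% interval -0.32 to 0.22, limma adjusted p = 0.810). The value is uncertain, because the table places Gm9855, a Tdg pseudogene, over 20436 bp of the same locus, and the levels of both ran together over the 14 libraries (Pearson r = 0.997). Their reads cannot be told apart here. Mbd4, on chromosome 6 from 115840697 to 115853341 (minus strand), ranged from 4.87 to 7.17 RPKM in GC, with a median of 6.14 RPKM, and from 4.95 to 6.78 RPKM in d8, with a median of 6.15 RPKM. All d8 libraries lay within the GC range, with a log2 difference of -0.05 (SE 0.13, 95% interval -0.36 to 0.25, limma adjusted p = 0.820).

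Lines of the same genotype were compared to see how much the genes vary without a change in genotype. Between GC lines 1 and 2, 823 genes (6.6%) differed and none of the members did by limma over the 14 libraries, although Gadd45b and Tet2 had an unadjusted p under 0.05. Among the d8 lines 289 genes (2.32%) differed, again with no member called and with 1 member, Gadd45b, at an unadjusted p under 0.05. For Gadd45b, GC line 2 was above GC line 1 by 0.66 on the log2 scale (SE 0.21, limma adjusted p = 0.0837), and d8 line 2 was above d8 line 1 by 0.80 (SE 0.21, limma adjusted p = 0.0634). Its difference between the genotypes, -0.69, is of a size with these differences between lines. For Gadd45g, d8 line 3 was above d8 line 2 by 0.72 (SE 0.30, limma adjusted p = 0.438), against 0.66 between the genotypes. Without the d8 1C library the difference between d8 lines 1 and 2 was 1.07 (limma adjusted p = 0.00596) and Gadd45b also passed between the GC lines (adjusted p = 0.0256). Without the GC 1A library Gadd45g passed between the GC lines at -0.66 (limma adjusted p = 0.0354). Gadd45a differed by -0.0031 on the log2 scale between the GC lines and by -0.11 to 0.20 between pairs of d8 lines. The error in these tests is that between libraries of the same line, and it may be technical.

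Ctcf itself differed between the GC lines, at 5.93 RPKM in line 1 and 28.1 RPKM in line 2, against 28.5, 33.0 and 34.5 RPKM in the d8 lines. An RPKM over the whole gene is blind to the loss of zinc finger 8 and is no check of the deletion. Summed ES cell markers, 8 genes, ranged from 1434 to 1890 RPKM in GC and from 1477 to 1883 RPKM in d8. Of these, Tdgf1 rose and Nanog fell. Summed fibroblast or feeder cell markers ranged from 57.4 to 202 RPKM in GC and from 19.0 to 41.8 RPKM in d8. Of 6 tested genes 4 were lower, Col1a1 and Acta2 among them. Acta2, the largest part, averaged 68.2 RPKM in GC and 17.3 RPKM in d8. Thy1 went the other way without passing, from 3.67 ± 1.19 RPKM to 5.15 ± 0.193 RPKM. Summed primitive endoderm markers ranged from 4.05 to 7.85 RPKM in GC and from 8.76 to 45.6 RPKM in d8, where Gata4 rose. Trophoblast markers summed to 131 to 231 RPKM in GC and 55.8 to 170 RPKM in d8, with 1 of 5 tested genes lower. Krt18, the largest part at 145 RPKM in GC and 104 RPKM in d8, did not pass. Mesoderm markers summed to 4.79 to 79.7 RPKM in GC and 2.93 to 17.8 RPKM in d8, and T differed widely between the GC lines (24.2 ± 25.9 RPKM). Neuroectoderm markers summed to 73.6 to 96.8 RPKM in GC and 55.2 to 79.8 RPKM in d8. No mesoderm or neuroectoderm marker passed the test, and no marker was at 0 in all libraries. The part of these other cell types in the differences of the members was not tested, and in bulk samples fewer cells of a type and less RNA per cell cannot be told apart.

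The genes around the members in the pathway were taken from 7 lists, chosen with earlier results of these data known. Over the lists 14 of 81 tested genes changed, 6 higher and 8 lower in d8, and over all genes tested 8.76% changed, 3.02% higher and 5.74% lower. Single lists had 0 to 5 changed genes, and at that share of all genes a count of 1 or 2 in a list of this size is near the background. Of the 8 that fell, 5 are on chromosome 11 (Mpg, Ogdh, Map2k4, Trp53 and Brca1). On that chromosome 387 of 1067 tested genes fell and 2 rose, with a median log2 difference of -0.40. The 5 genes ranged from -0.63 for Mpg to -0.39 for Trp53. The part of the chromosome in these calls was not tested. No member is on chromosome 11. Without chromosome 11, 4 list genes were called, with the chromosomes centred in each line 5, and between 0 and 5 when a line was left out: 0 without GC line 1 or d8 line 3, 2 without d8 line 1 and 5 without GC line 2 or d8 line 2.

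Of 19 base excision repair genes, further DNA glycosylases among them, none rose and 2 fell, with a median log2 difference of -0.11 over the list. Ung, the uracil DNA glycosylase gene, fell from 56.7 ± 5.72 RPKM to 42.3 ± 1.59 RPKM (log2 difference -0.41, limma adjusted p = 0.0373). Mpg, which encodes an alkyladenine glycosylase, fell from 14.9 ± 2.75 RPKM to 9.23 ± 0.382 RPKM. Of 13 tested TET partners and enzymes around 2-oxoglutarate, the co-substrate of the TET enzymes, none rose and 2 fell, with a median of -0.08. D2hgdh, which oxidises D-2-hydroxyglutarate to 2-oxoglutarate, fell from 3.76 ± 0.0825 RPKM to 0.919 ± 0.198 RPKM (log2 difference -1.31, SE 0.14, limma adjusted p = 0.0130). Ogdh, a subunit of the 2-oxoglutarate dehydrogenase, fell from 39.1 ± 1.60 RPKM to 29.2 ± 0.651 RPKM.

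Of 15 DNA methylation writers and readers 2 rose and none fell, with a median of -0.03. They were the de novo methyltransferase genes Dnmt3a, from 30.5 ± 1.09 RPKM to 49.3 ± 4.44 RPKM (log2 difference 0.69, SE 0.095, limma adjusted p = 0.0183), and Dnmt3b, from 203 ± 3.78 RPKM to 300.2 ± 29.4 RPKM (log2 difference 0.61, SE 0.099, limma adjusted p = 0.0230). None of the 3 tested deaminase genes changed, and their median was 0.09. Apobec3, a cytidine deaminase gene, stood at 17.3 ± 1.60 RPKM in GC and 14.8 ± 1.80 RPKM in d8, and its relative Apobec2 at 3.36 ± 1.59 RPKM and 3.62 ± 1.56 RPKM.

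Of 14 genes for partners of GADD45, none rose and 1, Map2k4, a kinase gene of the JNK and p38 pathways, fell from 33.4 ± 5.19 RPKM to 22.3 ± 1.53 RPKM. Pcna, the sliding clamp gene, stood at 127 ± 0.334 RPKM in GC and 124 ± 9.12 RPKM in d8, and Cdk1, the mitotic kinase gene, at 69.1 ± 5.36 RPKM and 61.9 ± 1.94 RPKM. Neither passed. Of 7 genes known to induce Gadd45 genes 2 rose and 3 fell, with a median of -0.03. Foxo3, a forkhead factor gene, rose from 9.06 ± 0.509 RPKM to 15.2 ± 2.71 RPKM (log2 difference 0.69, limma adjusted p = 0.0369), and Atf4, a stress response factor gene, from 218 ± 3.17 RPKM to 289 ± 20.8 RPKM (0.40, limma adjusted p = 0.0325). Egr1, an immediate early gene, fell from 16.3 ± 0.710 RPKM to 6.30 ± 1.84 RPKM (-1.25, limma adjusted p = 0.0248), and Brca1 from 26.9 ± 3.92 RPKM to 17.1 ± 2.28 RPKM. Of 10 tested germline genes whose promoters are methylated in somatic cells, 2 rose, Mael (5.70 ± 2.16 RPKM to 15.8 ± 5.27 RPKM, limma adjusted p = 0.0415) and Sycp3 (6.94 ± 3.47 RPKM to 15.0 ± 0.737 RPKM, limma adjusted p = 0.0495), and none fell, with a median of 0.47.

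Over the 14 libraries, the genes whose log2(RPKM + 1) values were most like those of Gadd45a were Lamp1 (Pearson r = 0.957), Rragc (0.950) and Ankrd12 (0.944). All 3 rose in d8, which follows largely from their choice by likeness to Gadd45a, itself higher in d8. For Tet1 they were Nsd1 (0.963), Kmt2c (0.958) and Trappc8 (0.936), of which Nsd1 and Kmt2c also have transcripts over 8000 bp. The most alike were Slx4 (0.895) for Tet2, Plod3 (0.911) for Tet3, Ankrd26 (0.844) for Mbd4, Anln (0.949) for Gadd45b and Zfp668 (0.916) for Gadd45g. Between members the highest value was 0.73, for Gadd45a with Gadd45g, and the lowest was -0.73, for Tet2 with Tdg. Gadd45b ran against Gadd45g at -0.63. These libraries share lines and genotypes, so the values are a description.

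The authors' deposited table of changed genes, control against del8, holds 1280 genes and 3 of the 8 members, Gadd45g, Tet2 and Gadd45b. The expression table used here holds 24940 genes. How many genes the authors tested was not established, so no background share stands beside these 3 members. Gadd45a, the member called here with a log2 difference of 0.56, is not in it. The smallest change in it is 0.501 on the log2 scale, in either direction, and the largest adjusted p is 0.0497. No sign convention is stated. A positive value was read as higher in del8, since 273 of the 280 listed genes that also changed here (97.5%) then had the same sign. In the authors' deposited table Gadd45g stands at a log2 fold change of 1.61 (adjusted p = 7.87e-13) and Tet2 at -0.80 (adjusted p = 8.59e-05). The same authors' deposited table gives Gadd45b a log2 fold change of 0.58 (adjusted p = 0.0249), of opposite sign to the value from the line means. The samples behind that table could not be matched to these 14 libraries by name.

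CTCF peaks within 50 kb of the members numbered 24 in the GC list and 18 in the Del8 list, of 26729 and 15546 in all. The comparison asks which sites near these genes were still called without zinc finger 8. Of the 24 GC peaks 12 were overlapped by a Del8 peak by at least 1 bp and 12 were not, a loss of 50.0% (exact Clopper-Pearson 95% interval 29.1 to 70.9%, for counting error only). In the whole list 58.0% of the GC peaks had no Del8 overlap, so the share near the members is near the background. Of the 18 Del8 peaks 6 overlapped no GC peak, against 27.8% of the whole list. Each list is from 1 library, so there is no replicate check, and the Del8 list was called from 5.59 M tags against 8.09 M for GC. Every score in the lists is 1, so peak heights could not be compared. By order in the GC list, 61.5% of the peaks in the first 50.0% were retained, against 22.4% of the rest. What this order stands for was not tested.

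**Figure D5:**
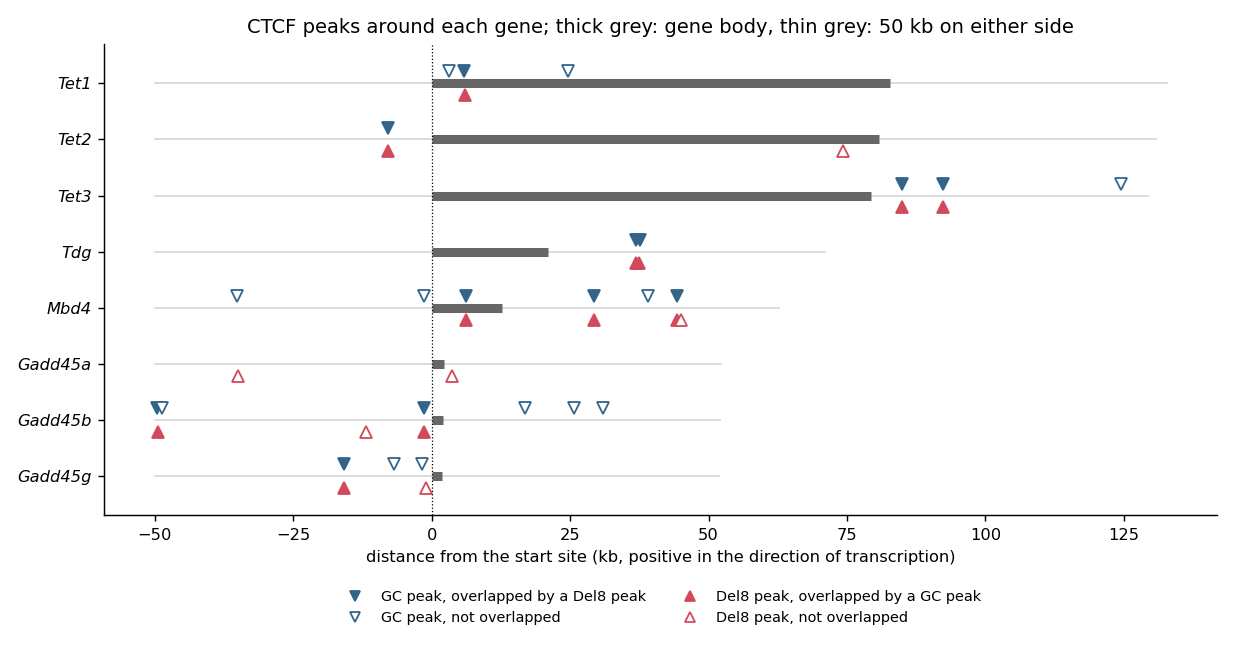
Positions of CTCF peak centres by distance from each gene's start site in kb (horizontal axis, positive in the direction of transcription), with GC peaks as blue triangles above and Del8 peaks as red triangles below each line. Filled triangles are overlapped by a peak of the other list and open ones are not; Gadd45a has 2 open Del8 triangles and no GC triangle, and the GC peak next to the Gadd45g start site is open.

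Gadd45a had no GC peak within 50 kb, which held for 7.64% of the tested genes, and the nearest GC peak centre was 73.6 kb downstream of its start site. It had 2 Del8 peaks, neither overlapping a GC peak, at 3708 bp downstream (chr6:67033576-67033822) and, inside E230016M11Rik, 35034 bp upstream of the start site. A Del8 peak without any GC peak in the window was found for 228 tested genes (1.83%). The peak at 3708 bp lies past the 3' end of the gene. In the order of the Del8 list the 2 peaks stood at places 12350 and 14645 of 15546.

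Gadd45g had a GC peak centred 1798 bp upstream of its start site (chr13:51844761-51844993) with no Del8 overlap, and a Del8 peak 976 bp upstream (chr13:51845576-51845822) with no GC overlap. The centres are 822 bp apart. This GC peak stood at place 18479 of 26729 in its list, and this Del8 peak at place 4016 of 15546. Of its other GC peaks the one 6844 bp upstream was lost and the one 15765 bp upstream was retained. Gadd45b had 6 GC peaks, and 19.2% of the tested genes had at least 6. The one nearest its start site, 1455 bp upstream (chr10:80928520-80928752), was retained, and so was 1 near the edge of the window at 49553 bp upstream. The 3 GC peaks downstream of Gadd45b, at 16800, 25743 and 30861 bp, had no Del8 overlap, and neither did 1 at 48609 bp upstream. The downstream peaks stood at places 1944, 8233 and 5566 of the GC list, and the upstream one at place 265. Thus 4 of the 6 were lost, against 58.0% of the whole GC list. A Del8 peak 11889 bp upstream had no GC overlap.

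Tet1 had 3 GC peaks, all inside the gene. The one 5909 bp from the start site (chr10:62881299-62881531) was retained, and those at 3158 bp and 24665 bp were not. In the GC list the retained peak stood at place 18226 and the others at 16653 and 12845. Tet2 had 1 GC peak, 7797 bp upstream (chr3:133552071-133552303), which was retained, and 1 Del8 peak inside the gene at 74304 bp with no GC overlap. Tet3 had 3 GC peaks, all beyond its 3' end. The one at 92291 bp lies 97 bp from the start site of Bola3 and was retained. Whether CTCF binding has a part in the fall of Bola3 was not tested. Tdg had 2 GC peaks downstream, at 36818 and 37592 bp, both retained. Mbd4 had 6 GC peaks, of which the one inside the gene at 6242 bp was retained and the one nearest to the start site, 1312 bp upstream (chr6:115854537-115854769), was lost. A GC peak centre within 2000 bp of the start site was found for Mbd4, Gadd45b and Gadd45g, and for 19.2% of the tested genes. Among these 3, the peak at Gadd45b was retained and those at Mbd4 and Gadd45g were lost. The loss at Gadd45g depends on the overlap rule, since a Del8 peak centre lies 822 bp away, inside the 1 kb of an alternative rule. The peak at Mbd4 lies inside the neighbouring gene Ift122, 1125 bp from its start site and so closer to it than to that of Mbd4.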

How the data were processed

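Per the labels' protocols, the RNA-seq kit was stranded and reads were single-end. The authors deposited RPKM values for 24940 genes, counted per the file headers with HOMER over exons of 1 RefSeq transcript per gene on mm10, with no strand setting named. Strand was therefore not assumed. HISAT2, Bowtie, SAMtools, DESeq2 and deepTools are further tools in the submitters' processing notes, without versions, as are the builds mm10 and mm9. The authors' deposited comparison table gives log2 fold changes with p-values and adjusted p-values, and its 5 per-sample columns, which match no sample by name, were not used. The deposited peak lists hold positions and a score of 1 per peak, called with HOMER per the file headers (factor style, false discovery rate 0.001, 4-fold over the surrounding 10000 bp), with a threshold of 9 tags for GC and 8 for Del8. Their coordinates were taken as mm10 and are given 1-based. Further ChIP-seq and all Med-Seq samples were not analysed here.

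Low RPKM values came out as whole multiples of 1 read, within 0.1 read, in every library, which gave 14.3 to 16.7 M reads per library. Values were averaged per cell line on the log2(RPKM + 1) scale, which understates the change of low genes. Genes that averaged 1 RPKM or more in GC or d8 were tested with limma 3.58.1 (R 4.3.3), allowing a trend in the variance. The steps were tested on simulated data. Lines of a genotype were compared with limma over the 14 libraries. Nothing in the labels says that lines came from separate derivations, so p-values measure the spread between these lines. The design allowed for counts, but the table holds RPKM. Replicate numbers did not pair the samples. A GC peak was near a gene if its centre lay within 50 kb of the gene body, and retained if a Del8 peak overlapped it by 1 bp.

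Named were all 8 members, up to 4 called genes per list with the largest change or else the 2 of highest level, the 3 genes most correlated with each member, and the peaks nearest to each start site. Of the genes most like a member, some are not named. Bola3, E230016M11Rik, Gm9855, Gng12, Ift122, the marker genes and the further peaks were named after their values were seen. The members and lists were chosen with earlier results of these data known. Promoter sequences came from RefSeq on GRCm38.p6, where all 8 members matched by symbol.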

Additional observations from a re-analysis of the deposited data

Results flagged for a closer look

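Each gene's GC and d8 libraries were examined for a library far from the rest, 16 groups in all, and chance alone marks about 1 group in 20. Such a library was found in 1 group. Tet2 in the d8 2B library stood at 11.4 RPKM, while the nearest d8 library stood at 7.25 RPKM and the median of the 8 d8 libraries was 6.36 RPKM. The same library also held the highest Tet1 value, 48.7 RPKM, and the lowest d8 value of Gadd45a, 29.2 RPKM. Without it, the log2 difference of Tet2 between the genotypes was -0.12 (limma adjusted p = 0.73).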

How the results depend on the processing

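Gadd45a kept its direction in all 21 alternatives tried and passed the threshold in 16 of them (limma adjusted p from 0.000332 to 0.0965). The lowest value came from the fit with 14 independent libraries. That fit and the replicate block by full sample number take libraries of a line as independent. Over line means the lowest limma adjusted p was 0.0109, without the d8 2B library. Tet1, Gadd45b and Gadd45g kept their direction in all 21 and passed in 4, 2 and 2. Tet1 and Gadd45b passed only in fits over libraries and in none over line means. Gadd45g passed with 14 independent libraries and with d8 line 2 left out. The number of members called was 1 in the reported fit, 0 without a filter on low genes, 2 with a random block for the line and 4 with 14 independent libraries. It ranged from 0 to 2 when a line was left out. The number of all genes called was 1092, against 85 without a filter, 368 without chromosome 11, 479 with chromosomes centred in each line, 2545 with a random block for the line and 4029 with 14 independent libraries, and ranged from 27 to 579 when a line was left out. List genes called numbered 14, against 0 without a filter, 4 without chromosome 11, 5 with chromosomes centred, 25 with 14 independent libraries and 6 with no trend in the variance, and 0 to 5 when a line was left out. Fewer genes were tested without chromosome 11, and fewer samples when a line was left out. The cause of these changes in number was not tested.

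Sample letters and numbers did not pair the libraries, whose deviations correlated between -0.195 and 0.306 across genotypes. With a replicate block by sample letter 2230 genes and 2 members were called, while the replicate block by full number gave 2935 genes and 3 members. The sample numbers of d8 line 3 have no GC counterpart, so the full-number block takes nothing from that line. Its log2 differences for the members equal those with d8 line 3 left out, so these alternatives are not separate checks of the estimates. The near-zero differences changed sign without passing the threshold. Tet2 stood at 0.0023 with independent libraries and 0.12 with the full-number block. Tet3 stood at -0.0023 and -0.0082 with the letter and full-number blocks, -0.11 with the length trend removed and -0.014 without the GC 1C library. Tdg stood at 0.015 without GC 1C and Mbd4 at 0.028 with the full-number block. When a line was left out, Tet2 ranged from -0.30 to 0.22, Tet3 from -0.11 to 0.15, Tdg from -0.13 to 0.028 and Mbd4 from -0.14 to 0.028. Members called between lines of a genotype ranged from 0 to 1 when a library was left out. The share of GC peaks lost near members was 41.2 to 64.3% in 6 alternatives, within the counting interval of the reported 50.0%. The low Tet3 and Tdg levels rested on 394 to 647 and 170 to 249 estimated reads per library, which limits their precision.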
